A study of Homo sapiens with 44 samples.

Results

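Catecholamines are made from tyrosine by a short chain of enzymes, packed into vesicles, released, taken back up and broken down, and neuroblastomas arise from the sympathoadrenal lineage that runs this chain and often excrete its breakdown products. The 9 genes followed here, of 21448 transcript clusters (the array's units, close to 1 per gene) measured, were chosen by their place in the chain. They encode the enzymes tyrosine hydroxylase (TH), aromatic amino acid decarboxylase (DDC), dopamine beta-hydroxylase (DBH) and GTP cyclohydrolase (GCH1), the plasma membrane noradrenaline transporter (SLC6A2), the vesicular monoamine transporters (SLC18A1 and SLC18A2), monoamine oxidase A (MAOA) and the vesicle membrane protein cytochrome b561 (CYB561). Each was represented by 1 named transcript cluster, and all 9 were measured on every array.

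TH performs the first and rate-limiting step, from tyrosine to DOPA, with a biopterin cofactor whose synthesis begins with GCH1. DDC turns DOPA into dopamine in the cytoplasm, SLC18A1 and SLC18A2 load it into vesicles, and DBH inside the vesicle turns it into noradrenaline with ascorbate that CYB561 keeps reduced. SLC6A2 returns released noradrenaline to the cell and also carries the radiolabelled analogue used to image neuroblastoma, and MAOA on the mitochondrial surface deaminates the amines.

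The arrays measured RNA from CHP134 cells, a neuroblastoma line with MYCN amplification, and SK-N-AS cells, a neuroblastoma line without it. Both carried a lentiviral construct with GFP and a hairpin that doxycycline (DOX) induces, and were sorted for high GFP, so each line is a selected pool. JMJD6 encodes a nuclear oxygenase of the Jumonji family. In CHP134 there were 4 arrays each of JMJD6 shRNA-1 cells with DOX and with vehicle, 4 each of JMJD6 shRNA-2 cells with DOX and with vehicle, and 6 each of control shRNA cells with DOX and with vehicle. In SK-N-AS there were 3 each of JMJD6 shRNA-2 cells with DOX and with vehicle, and 3 each of control shRNA cells with DOX and with vehicle. DOX was given at 2 µg/ml for 40 h. Repeats carried letters, which in CHP134 ran from A to D for shRNA-2 and from A to F for control, while shRNA-1 had A and B with E and F, except that 1 repeat of each SK-N-AS group had none. The study's supplement says that the array experiments were repeated, and neither it nor the labels name separate cultures, so the p-values measure the spread between these repeats, which may be technical.

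All values are log2 intensities after normalization by the depositors. A cluster counts as above background on an array where it exceeds 95% of that array's negative control probe sets, and this bound is used throughout. JMJD6 itself lay at 6.77 to 7.16 in CHP134 shRNA-1 cells with DOX, against 7.63 to 7.94 with vehicle, and at 6.45 to 6.90 in shRNA-2 cells with DOX, against 7.61 to 7.87 with vehicle. In SK-N-AS shRNA-2 cells it lay at 6.44 to 6.84 with DOX, against 7.16 to 7.44 with vehicle. JMJD6 stayed between 7.63 and 8.16 in the 12 CHP134 control arrays and between 7.14 and 7.48 in the 6 SK-N-AS control arrays, so the targeted gene followed the labels in both lines as levels. In SK-N-AS repeat B, JMJD6 changed by -0.32 with DOX in shRNA-2 cells and by -0.34 in control cells, a net of 0.02, against -1.02 and -0.92 in the other repeats. Its difference, taken as for the members below, was -0.85 in the CHP134 mean (SE 0.14, limma adjusted p = 0.00153), -0.65 for shRNA-1 (SE 0.20, adjusted p = 0.590), -1.01 for shRNA-2 (SE 0.19, adjusted p = 0.0193) and -0.64 in SK-N-AS (SE 0.19, adjusted p = 0.536). The 10 sympathoadrenal marker genes measured averaged 8.38 to 9.01 per array in CHP134 and 6.61 to 7.25 in SK-N-AS, and the 15 markers of mesenchymal neuroblastoma cells averaged 5.92 to 6.30 in CHP134 and 7.74 to 8.10 in SK-N-AS. The sympathoadrenal list includes TH and DBH. Against these averages, PHOX2A and HAND2 had higher medians in SK-N-AS, and TWIST1 and MEOX2 in CHP134. Marker lists of Schwann cells (4 genes), blood cells (5) and epithelia and liver (6) averaged 5.50 or less in CHP134 and 6.51 or less in SK-N-AS. But 2 of their genes were high in SK-N-AS, PTPRC (CD45, of white blood cells) at 8.97 to 10.27 and the keratin KRT18 at 8.75 to 9.89. In CHP134 the highest was SOX10, of Schwann cells, at 6.56 to 7.74. The part of these genes in the results was not tested. A pair of SK-N-AS control arrays, that of the vehicle repeat without a letter and that of DOX repeat B, stood apart. They correlated at 0.994 with each other and at 0.984 to 0.987 with the other 4 control arrays, which correlated at 0.993 to 0.994 among themselves, and results that rest on this pair are also given without it. The JMJD6 response in SK-N-AS was -0.67 without it (SE 0.19, adjusted p = 0.376).

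The promoters below are those of members whose levels the text returns to, shown from 250 bases before to 50 bases after an annotated transcript start (RefSeq, GRCh38.p14). Promoters of 5 of the 9 members were used. SLC18A1 was left out of the search, and no promoter was held for TH, GCH1 or SLC6A2. Capitals mark matches, on either strand, to the cAMP response element TGACGTCA, its core TGACG, the AP-1 site TGAGTCA, the E-boxes CACGTG and CATCTG, the homeodomain core TAATTA or the GATA core AGATAA, where TGACG is itself part of TGACGTCA. SLC18A2 (chr10:117240864-117241163, plus strand) and MAOA (chrX:43656049-43656348, plus strand) had 1 promoter each, DDC 2 (minus strand, chr7:50565356-50565655 and chr7:50561022-50561321), and of the 4 of CYB561 the one with a match is shown (chr17:63446257-63446556, minus strand).
SLC18A2: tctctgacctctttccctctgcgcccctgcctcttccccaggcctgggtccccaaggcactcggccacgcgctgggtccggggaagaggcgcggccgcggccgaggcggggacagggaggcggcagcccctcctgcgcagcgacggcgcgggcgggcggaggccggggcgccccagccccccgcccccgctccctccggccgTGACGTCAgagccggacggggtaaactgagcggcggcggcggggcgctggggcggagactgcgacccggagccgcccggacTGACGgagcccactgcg
MAOA: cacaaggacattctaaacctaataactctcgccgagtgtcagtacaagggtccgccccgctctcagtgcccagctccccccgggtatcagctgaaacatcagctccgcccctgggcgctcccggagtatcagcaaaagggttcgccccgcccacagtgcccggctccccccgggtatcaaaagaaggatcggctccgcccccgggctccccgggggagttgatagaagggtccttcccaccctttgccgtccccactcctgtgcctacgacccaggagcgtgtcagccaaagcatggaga
DDC, first start: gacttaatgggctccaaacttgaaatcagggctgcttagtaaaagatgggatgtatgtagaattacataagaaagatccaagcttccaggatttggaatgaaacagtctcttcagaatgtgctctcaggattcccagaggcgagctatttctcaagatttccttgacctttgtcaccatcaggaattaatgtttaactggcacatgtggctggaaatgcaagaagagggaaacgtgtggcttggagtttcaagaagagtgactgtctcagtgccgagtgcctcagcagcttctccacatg
DDC, second start: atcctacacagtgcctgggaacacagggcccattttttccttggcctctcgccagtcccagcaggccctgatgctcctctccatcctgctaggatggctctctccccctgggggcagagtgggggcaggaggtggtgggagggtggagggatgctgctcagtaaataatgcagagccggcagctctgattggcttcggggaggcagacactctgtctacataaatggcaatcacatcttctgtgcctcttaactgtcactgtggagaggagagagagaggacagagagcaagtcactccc
CYB561, second start: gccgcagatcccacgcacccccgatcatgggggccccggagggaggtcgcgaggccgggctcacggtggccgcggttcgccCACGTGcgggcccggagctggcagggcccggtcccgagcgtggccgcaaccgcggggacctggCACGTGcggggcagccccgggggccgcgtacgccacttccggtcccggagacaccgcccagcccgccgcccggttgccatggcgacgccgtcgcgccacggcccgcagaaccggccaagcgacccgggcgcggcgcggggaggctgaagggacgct

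SLC18A2 held the full cAMP response element, beginning 48 bases before the start, which 1.85% of 35116 promoters of this length hold, and a further TGACG after the start. A TGACG anywhere in the window is held by 24.6% of promoters. The CYB561 promoter held CACGTG at 169 and 106 bases before the start, a word found in 7.26% of promoters. DBH, whose promoter is not shown, held 1 TGACG 181 bases before the start. No match to any of the 7 words was found in the windows of MAOA or DDC. GC content was 78.7% in the SLC18A2 window, 63.0% in that of MAOA, and 44.3% and 57.3% in the first and second windows of DDC.

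Levels of the 9 genes in the 2 lines are given first. The lines were taken to have been normalized apart. Each gene is therefore described by its distance from background and its percentile among all clusters of the same array. No test was run between lines. DDC and CYB561 were close to background in CHP134 and far above it in SK-N-AS, whereas SLC18A2 lay further above it in CHP134. A bulk array cannot tell fewer cells that carry a transcript from less of it per cell.

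DDC lay between 3.70 and 5.05 (median 4.21) on the 28 CHP134 arrays and was above background on 16 of them, with a median of 0.03 over the bound. On the 12 SK-N-AS arrays it lay between 6.55 and 8.05 (median 7.14), above background on all 12 and 3.25 over the bound at the median. Its percentile was 16.8 to 33.7 in CHP134 and 57.6 to 78.9 in SK-N-AS. CYB561 lay at 4.32 to 5.36 in CHP134, above background on 27 of 28 arrays, and at 7.19 to 8.03 in SK-N-AS. Its percentile was 24.5 to 39.1 in CHP134 and 67.2 to 78.6 in SK-N-AS. The share of all clusters whose ranges differ as far between the lines was not counted.

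SLC18A2, the vesicular transporter of neurons, lay at 4.97 to 5.89 in CHP134 (median 1.29 over the bound, percentile 33.1 to 45.9). In SK-N-AS it lay between 4.02 and 4.49 (median 0.39 over the bound, percentile 22.0 to 28.2), above background on all 12 arrays. SLC18A1, the form best known from endocrine cells, was above background on 17 of 28 CHP134 arrays, where it lay between 3.71 and 5.35, and on all 12 SK-N-AS arrays, where it lay between 4.60 and 5.22. SLC18A2 reached no higher than percentile 45.9 on any array, and SLC18A1 no higher than 37.9.

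The cofactor enzyme GCH1 lay at 7.22 to 8.37 in CHP134 (percentile 66.0 to 81.7) and at 6.63 to 7.41 in SK-N-AS (percentile 59.0 to 70.1). TH lay near the middle of all clusters in both lines, at 5.77 to 7.07 in CHP134 (median percentile 51.7) and at 5.83 to 6.28 in SK-N-AS (median percentile 50.4). DBH was dim in both, at 4.37 to 5.88 in CHP134 (above background on 27 of 28 arrays) and at 4.44 to 5.26 in SK-N-AS. MAOA lay at 6.11 to 6.69 in CHP134 and at 5.92 to 7.09 in SK-N-AS. SLC6A2 spread most widely in CHP134, from 6.33 to 9.46 (SD over arrays 0.62, n = 28), and from 5.08 to 7.55 in SK-N-AS (SD 0.63, n = 12).

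**Figure D1:**
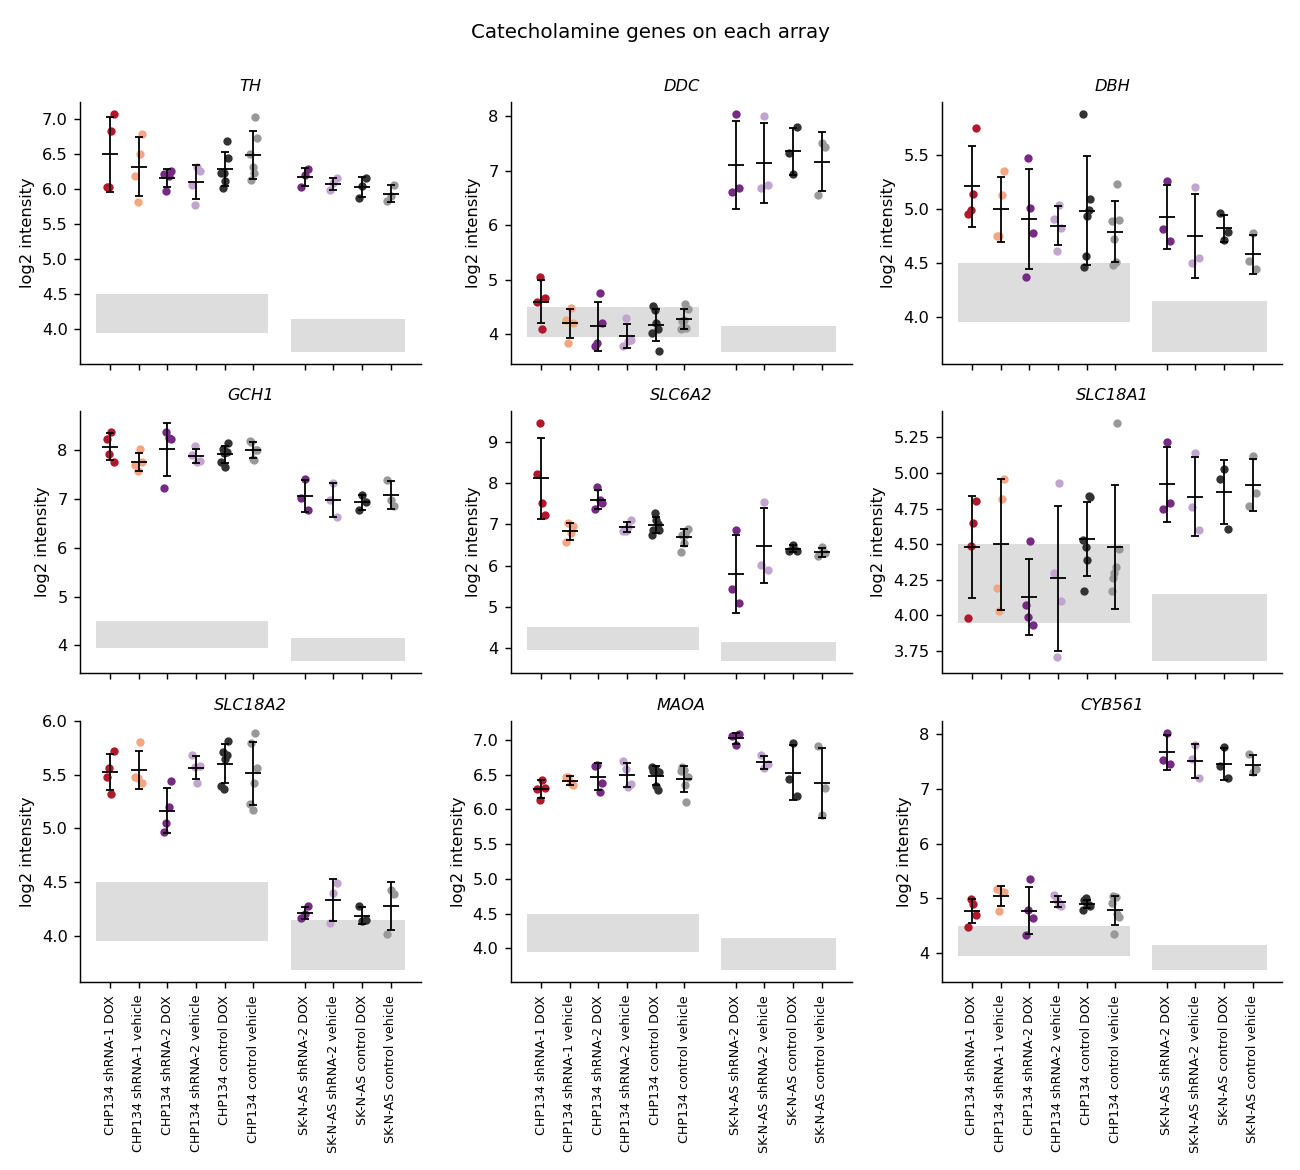
Log2 intensity of each gene on every array (points), with group mean and SD, for the 6 CHP134 groups and the 4 SK-N-AS groups. The grey band spans the background bounds of a line's arrays. DDC lies within or near the band in CHP134 and at 6.55 or above in SK-N-AS.

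The response to JMJD6 shRNA was taken as the change with DOX over vehicle in JMJD6 shRNA cells minus that change in control shRNA cells, tested with limma over all 21448 clusters with Benjamini-Hochberg adjustment at 0.05. For each hairpin in CHP134 the control arrays of the same letters entered, and for the mean of both hairpins all 28 arrays. In the mean response in CHP134, 0 of the 9 genes passed, where 1.25% of all clusters did (268 clusters), and 1 of 9 had an unadjusted p under 0.05 (2200 clusters). With repeat letters as blocks 0 of 9 passed, where 6.18% of all clusters did (1326 clusters). The 9 differences lay between -0.33 and 0.68 (median -0.06, against 0.00 over all clusters), with 4 above and 5 below 0. For 8 of the 9 the 95% interval lay within 1 log2 unit of 0 on both sides. The main fit does not pair arrays by letter. TH gave 0.31 here (SE 0.24, adjusted p = 0.797), with an SE of 0.13 and adjusted p of 0.167 with repeat letters as blocks. With repeats paired within each hairpin's cells, a setting chosen after the values were seen, its interval was 0.09 to 0.54. Its limma adjusted p was then 0.0834, where 1686 clusters passed. DOX minus vehicle of TH averaged 0.17 in shRNA-1 cells and 0.06 in shRNA-2 cells, against -0.20 in control cells.

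SLC6A2 had the largest difference of the 9. In CHP134 shRNA-1 cells it measured 8.23, 9.46, 7.53 and 7.24 with DOX (repeats A, B, E and F), against 6.57, 7.04, 6.79 and 6.95 with vehicle. In shRNA-2 cells it measured 7.37, 7.91, 7.60 and 7.51 with DOX (repeats A to D), against 6.83, 6.85, 6.94 and 7.10 with vehicle. The DOX arrays lay above the vehicle arrays without overlap for both hairpins, and shRNA-1 repeats A and B were the highest of all. Control shRNA cells measured 6.74, 6.86, 7.28, 7.10, 7.01 and 6.87 with DOX (repeats A to F), against 6.33, 6.74, 6.55, 6.74, 6.84 and 6.89 with vehicle, and were higher with DOX in 5 of 6 repeats.

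The mean response of SLC6A2 was thus 0.68 (SE 0.29, 95% interval 0.09 to 1.27, 1.60-fold). Its limma adjusted p was 0.357, and 0.162 with repeat letters as blocks. With repeats paired within each hairpin's cells, a setting chosen after the values were seen, the adjusted p was 0.117. For shRNA-1 alone the response was 1.11 (SE 0.46, interval 0.14 to 2.08, 2.16-fold, adjusted p = 0.870), and for shRNA-2 0.26 (SE 0.21, interval -0.18 to 0.71, adjusted p = 0.780). Against the control repeat of the same letter, 4 of 4 shRNA-1 repeats lay higher (0.31 to 2.30) and 3 of 4 shRNA-2 repeats (-0.07 to 0.94). For this and the other tallies of repeats in this report, the share of all clusters on 1 side in every repeat was not counted. Nor was the share without overlap between DOX and vehicle groups. Within repeats A and B the response was 1.78 for shRNA-1 and 0.53 for shRNA-2. It was 0.44 for shRNA-1 in repeats E and F, and -0.01 for shRNA-2 in repeats C and D, so most of the size came from repeats A and B. Without shRNA-1 DOX repeat B, the mean response was 0.46 and the shRNA-1 response 0.66.

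The shRNA-1 response on its own showed 0 of 9 genes past the threshold, beside 0% of all clusters, and 0 of 9 with repeat letters as blocks, beside 0.0746% (16 clusters). TH, DDC and GCH1 gave 0.43, 0.54 and 0.43 here (SE 0.37, 0.29 and 0.21), with adjusted p-values of 0.961 or more. TH lay above the control in 4 of 4 shRNA-1 repeats, by 0.12 to 0.67, with an SE of 0.19 and an adjusted p of 0.462 with repeat letters as blocks. TH itself was higher with DOX than vehicle in 3 of 4 shRNA-1 repeats (-0.16 to 0.33) and in 0 of 6 control repeats. DDC was above background in 4 of 4 shRNA-1 arrays with DOX and in 2 of 4 with vehicle, at 4.09 to 5.05 with DOX and 3.83 to 4.48 with vehicle, and these ranges overlapped. GCH1 was higher with DOX than vehicle in 4 of 4 shRNA-1 repeats, by 0.02 to 0.54. Against the control of the same repeat it lay above in 3 of 4 (-0.12 to 0.97). MAOA lay below the control in 4 of 4 shRNA-1 repeats, by -0.27 to -0.11, with a difference of -0.18 (SE 0.18).

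For the shRNA-2 response in CHP134, 0 of 9 passed beside 0.779% of all clusters, and 0 of 9 with repeat letters as blocks beside 4.47% (959 clusters). SLC18A2 had the smallest p of the 9. It measured 4.97, 5.05, 5.20 and 5.44 with DOX in shRNA-2 cells, against 5.68, 5.57, 5.42 and 5.58 with vehicle. Repeat D with DOX (5.44) overlapped the lowest vehicle array (5.42), and DOX was the lower of the pair in 4 of 4 repeats. Control cells of the same letters measured 5.39, 5.71, 5.37 and 5.64 with DOX, against 5.23, 5.79, 5.17 and 5.42 with vehicle.

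The SLC18A2 difference for shRNA-2 was -0.53 (SE 0.21, interval -0.97 to -0.08, 1.44-fold lower), with an adjusted p of 0.342, and 0.116 with repeat letters as blocks. It was below the control in 4 of 4 repeats (-0.87 to -0.36), -0.65 within repeats A and B and -0.40 within C and D. In shRNA-1 cells SLC18A2 measured 5.48, 5.56, 5.32 and 5.72 with DOX, against 5.48, 5.47, 5.80 and 5.42 with vehicle, a difference of -0.05 (SE 0.22, interval -0.52 to 0.41). CYB561 also lay below the control in 4 of 4 shRNA-2 repeats (-0.60 to -0.07), with a difference of -0.23 (SE 0.26) that moved to -0.43 without shRNA-2 DOX repeat C, -0.08 without shRNA-2 DOX repeat A and -0.07 without control vehicle repeat C. It also lay below in 3 of 4 shRNA-1 repeats, with -0.32 (SE 0.20).

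The hairpins were set against each other directly. Here 0 of 9 genes passed, beside 0.00932% of all clusters (2 clusters), and 0 of 9 with repeat letters as blocks, beside 0.326% (70 clusters). SLC6A2 differed by 0.62 (SE 0.38, interval -0.16 to 1.39) and SLC18A2 by 0.37 (SE 0.21, interval -0.06 to 0.81), shRNA-1 minus shRNA-2. Control cells do not enter this contrast, so it is not the difference of the 2 responses above, which used control arrays of different letters. The hairpins share only repeats A and B, so hairpin and repeats cannot be told apart fully. With 1 array left out at a time the SLC6A2 difference ran from 0.17 to 0.91, and was 0.17 without shRNA-1 DOX repeat B. The other 7 lay between -0.12 and 0.22.

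**Figure D2:**
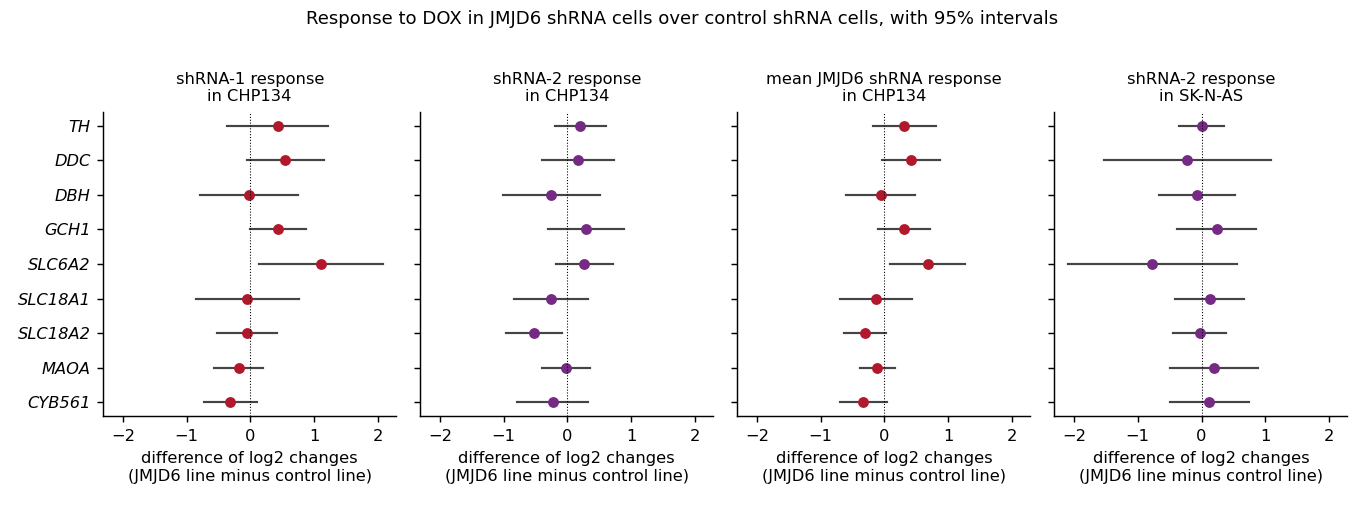
Response to JMJD6 shRNA of each gene (points, difference of log2 changes with DOX, JMJD6 line minus control line) with its 95% interval, for each hairpin and the mean of both in CHP134 and for shRNA-2 in SK-N-AS. SLC6A2 lies at 0.68 in the CHP134 mean and at -0.77 in SK-N-AS, and no value passed the adjusted threshold.

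In SK-N-AS, 0 of 9 genes passed in the response to shRNA-2, and 0% of all clusters did, with 1215 clusters at an unadjusted p under 0.05 and 0 of the 9 among them. Without the pair of control arrays that stood apart, 0 of 9 and 0% of all clusters passed too. SLC6A2 lay on the other side of 0 from CHP134. It measured 5.44, 6.86 and 5.08 with DOX in shRNA-2 cells (the repeat without a letter, B and C), against 6.01, 7.55 and 5.90 with vehicle. Both arrays of repeat B lay above every other SK-N-AS array for this gene. Control cells measured 6.36, 6.50 and 6.35 with DOX, against 6.23, 6.44 and 6.30 with vehicle.

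DOX was thus the lower of the pair in 3 of 3 shRNA-2 repeats of SK-N-AS (-0.82 to -0.57) and in 0 of 3 control repeats, while the shRNA-2 group ranges overlapped, with repeat B high in both. The SLC6A2 difference was -0.77 (SE 0.61, interval -2.10 to 0.56, adjusted p = 0.967), -0.67 (adjusted p = 0.862) without the pair of control arrays that stood apart, and -1.30 and -0.24 without the DOX and the vehicle array of repeat B. The DOX and vehicle arrays of a repeat deviated together in shRNA-2 cells (correlations of 0.18 to 0.41, 3 pairs), while in control cells the correlations ran from -0.47 to 0.26 (3 pairs). With repeats paired within each hairpin's cells, a setting chosen after the values were seen, SLC6A2 gave -0.77 with an SE of 0.15 (interval -1.12 to -0.42, unadjusted p = 9.2e-04 and adjusted p = 0.639 by limma), where 1130 of all clusters had an unadjusted p under 0.05 and 0% passed. The difference between the lines was not tested.

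**Figure D3:**
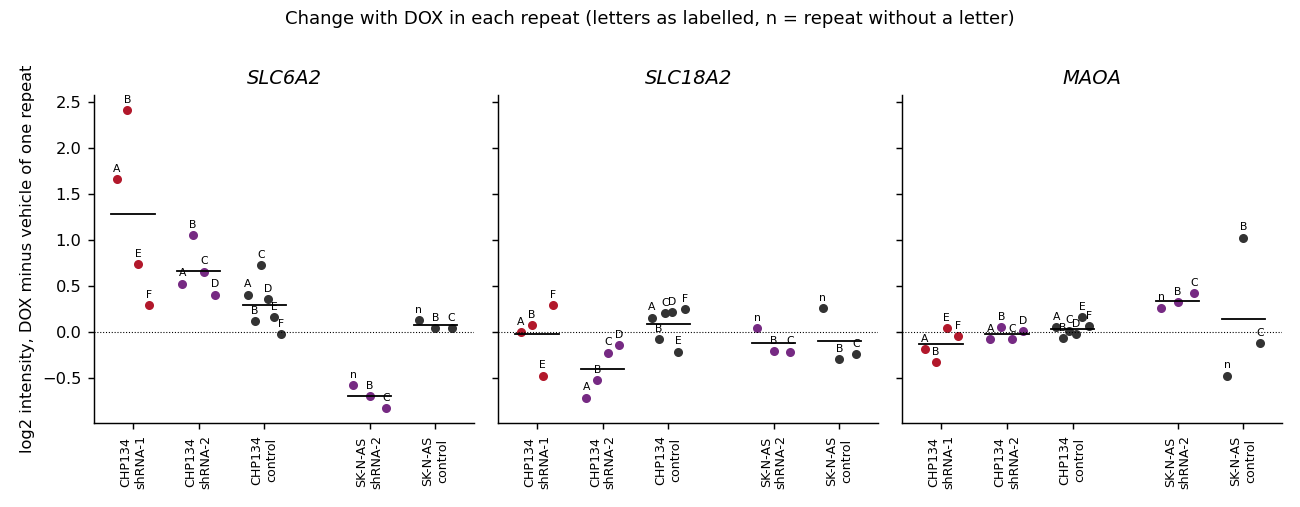
Log2 intensity with DOX minus vehicle within each repeat (points, lettered), with the mean of each hairpin and line (bars), for SLC6A2, SLC18A2 and MAOA. SLC6A2 lies at 0.30 to 2.42 in CHP134 shRNA-1 cells, at 0.41 to 1.06 in CHP134 shRNA-2 cells and between -0.82 and -0.57 in SK-N-AS shRNA-2 cells.

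The remaining SK-N-AS responses lay between -0.22 (DDC, SE 0.60) and 0.24 (GCH1, SE 0.29). Without the pair that stood apart DDC gave -0.12, GCH1 0.15 and SLC18A1 the highest of these, 0.29, against 0.13 with it. TH gave 0.00 (SE 0.16, interval -0.35 to 0.35), the narrowest interval of the 9. DDC measured 6.62, 8.05 and 6.68 with DOX in shRNA-2 cells, against 6.69, 8.00 and 6.75 with vehicle, so that it too was high in both arrays of repeat B while DOX and vehicle were within 0.07 of each other in every repeat.

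MAOA was the one member whose call turned on which arrays were used. In SK-N-AS shRNA-2 cells it measured 7.05, 6.93 and 7.09 with DOX (the repeat without a letter, B and C), against 6.78, 6.60 and 6.66 with vehicle. These groups did not overlap, and DOX was the higher of the pair in 3 of 3 repeats, by 0.27 to 0.43. Control cells measured 6.44, 6.96 and 6.19 with DOX, against 6.91, 5.92 and 6.31 with vehicle. The control arrays at 6.96 and 6.91 are the pair that stood apart, and the other 4 lay between 5.92 and 6.44, below every shRNA-2 array. The share of all clusters for which the other 4 lay apart from every shRNA-2 array was not counted.

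Before any DOX, shRNA-2 cells differed from control cells by 0.30 in MAOA (SE 0.23, interval -0.19 to 0.79, adjusted p = 0.743), and 0 of 9 members passed beside 0.00466% of all clusters (1 cluster). Without the pair that stood apart, a choice made after the values were seen, the MAOA difference was 0.57 (SE 0.14, 1 of 9 members passed, adjusted p = 0.0413), where 4.96% of all clusters passed (1063 clusters). Without the control vehicle array of the pair alone it was 0.57 with an adjusted p of 0.175. The MAOA response to DOX in this line was 0.20 (SE 0.32, adjusted p = 0.993), and 0.14 (SE 0.19, adjusted p = 0.896) without the pair. Set against the control of the same repeat it was 0.74, -0.70 and 0.54 in the repeat without a letter, B and C, and it was -0.07 without the control vehicle array of the pair. What set the pair apart was not tested.

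**Figure D4:**
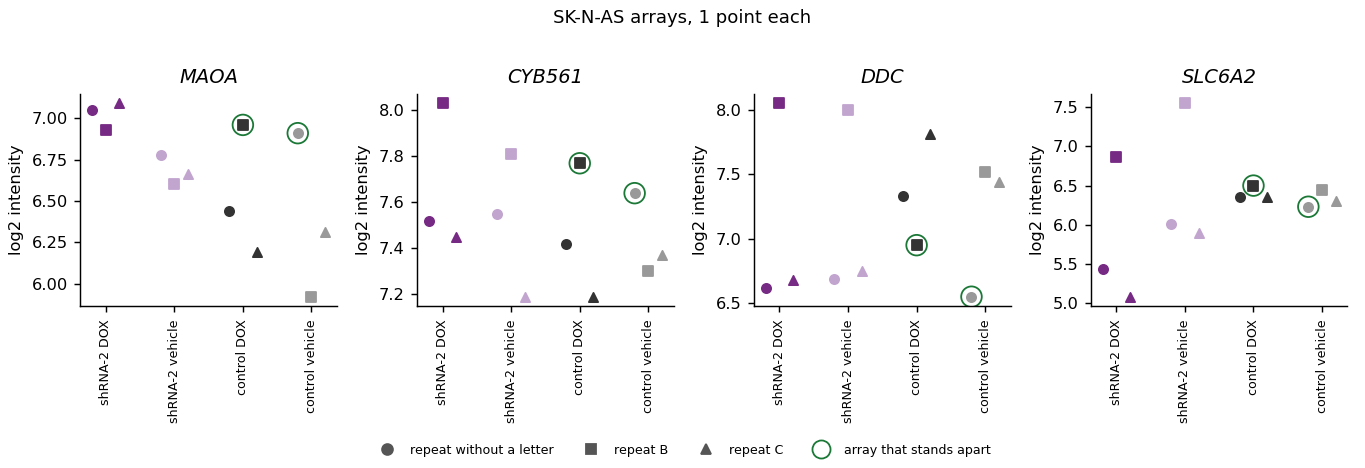
Log2 intensity of MAOA, CYB561, DDC and SLC6A2 on the 12 SK-N-AS arrays (1 point each, shape by repeat, groups on the horizontal axis). The ringed pair of control arrays lies at 6.91 and 6.96 for MAOA, within the 6.60 to 7.09 of shRNA-2 cells, and repeat B of shRNA-2 cells is the highest for DDC and SLC6A2.

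For 5 of the 9 members the pair did not overlap the other 4 control arrays, as was so for 37.9% of all clusters. DDC lay at 6.55 and 6.95 in the pair, against 7.33 to 7.81 in the other 4 control arrays, and CYB561 at 7.64 and 7.77, against 7.19 to 7.42. GCH1 lay at 7.40 and 7.08, against 6.78 to 6.99. SLC18A2 was at 4.02 and 4.14, just below the 4.15 to 4.43 of the other 4, and for TH, DBH, SLC6A2 and SLC18A1 the ranges overlapped.

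DOX alone, in control shRNA cells, left 0 of 9 members past the threshold in CHP134 and 0 of 9 in SK-N-AS, beside 0% of all clusters in each, and in SK-N-AS also without the pair that stood apart. TH was the lower with DOX in 6 of 6 CHP134 control repeats, by -0.34 to -0.08, with a difference of -0.20 (SE 0.18, interval -0.57 to 0.18, adjusted p = 1.00). The SE was 0.10 with repeat letters as blocks. With repeats paired within each hairpin's cells, a setting chosen after the values were seen, its interval was -0.37 to -0.03. Its unadjusted p was then 0.0231 by limma, where 0 of all clusters passed the adjusted threshold. TH was also higher in repeats E and F, at 6.44 to 7.07 on 8 arrays, than in repeats A and B, at 5.77 to 6.50 on 12 arrays, or C and D, at 6.11 to 6.31 on 8 arrays. The ranges met only between 6.44 and 6.50, and repeats E and F hold shRNA-1 and control cells but no shRNA-2 cells. SLC18A1 followed the same repeats, with a mean of 4.84 ± 0.25 in E and F (SD, n = 8), 4.16 ± 0.23 in A and B (SD, n = 12) and 4.37 ± 0.30 in C and D (SD, n = 8).

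Uninduced cells of the JMJD6 lines were also set against uninduced control cells in CHP134. For shRNA-1 cells 0 of 9 members passed beside 0% of all clusters, and 0 of 9 with repeat letters as blocks beside 0.788% (169 clusters). The differences ran from -0.24 (GCH1, SE 0.17) to 0.26 (CYB561, SE 0.15). For shRNA-2 cells 0 of 9 passed beside 0% of all clusters, with differences from -0.39 (TH, SE 0.21, adjusted p = 1.00) to 0.25 (SLC6A2, SE 0.24). The control cells here include repeats E and F, where TH was higher and which hold no shRNA-2 cells. With repeat letters as blocks TH was -0.19 (SE 0.11), and the lowest was DDC at -0.38 (SE 0.19).

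Beside the 9 members, 8 lists held 72 further genes of the pathway and its control, 58 of them measured, and 0 of these 58 passed in any of the 10 comparisons, where 0% to 1.25% of all clusters did. In the mean CHP134 response 33 of the 58 lay above 0 and 7 had an unadjusted p under 0.05, as had 10.3% of all clusters. Of the 6 biopterin genes measured, 3 lay above 0 and 3 below. PCBD2, a dehydratase of cofactor recycling, gave -0.73 (SE 0.29, adjusted p = 0.314) and PTS, the synthase after GCH1, gave -0.47 (SE 0.26). Of the 11 noradrenergic transcription factors measured, 7 lay above 0, with HAND1 at 0.40 (SE 0.17, adjusted p = 0.344) and TBX2 at -0.68 (SE 0.43).

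Both measured relatives of CYB561 lay below 0, CYB561A3 at -0.81 (SE 0.25, adjusted p = 0.109) and CYB561D1 at -0.39 (SE 0.20), as CYB561 did at -0.33 (SE 0.18). PRKACB, a catalytic subunit of the kinase that phosphorylates TH, gave 0.59 (SE 0.26, adjusted p = 0.399), and 7 of the 8 TH regulators measured lay above 0. Of the 13 adrenergic and dopamine receptors measured, 6 lay above 0. The dopamine receptor DRD5 gave -0.42 (SE 0.15, adjusted p = 0.205), and -0.75 in the shRNA-2 response (SE 0.17, adjusted p = 0.0506). The 6 other breakdown genes had a median of -0.11, with ALDH2, an aldehyde dehydrogenase, at 0.24 (SE 0.14). The 8 other transporters had a median of 0.06, with SLC7A5, an amino acid transporter, at -0.27 (SE 0.12, adjusted p = 0.419). PNMT, which turns noradrenaline into adrenaline, gave 0.22 (SE 0.15). Among the 40 marker genes measured, CHGA, a vesicle matrix protein of neuroendocrine cells, passed in the shRNA-2 response in CHP134 at 0.97 (SE 0.19, adjusted p = 0.0216), 1 of 40 where 0.779% of all clusters passed.

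The clusters most like the 3 members of widest spread over the CHP134 arrays were found by Pearson correlation across the arrays of 1 line, as a description of arrays that share groups and repeats. SLC6A2 went most closely with GFRA3 (0.911), ADAMTS2 (0.877) and CAMK2D (0.873) over the 28 CHP134 arrays, and with SLC27A6 (0.947), PLEKHA6 (0.913) and RGS16 (0.907) over the 12 SK-N-AS arrays. GFRA3, a coreceptor for artemin, lay at 4.67 to 8.40 in CHP134. SLC18A1 went with HSD17B2 (0.825), GPR17 (0.813) and GLIS1 (0.812) in CHP134, and with KIF26B (0.892), CHD6 (0.871) and MMP28 (0.844) in SK-N-AS. DBH went with ENAM (0.734), CRCT1 (0.730) and ACSM2A (0.720) in CHP134, and with EML1 (0.914), SMARCAD1 (0.912) and COL6A1 (0.904) in SK-N-AS. No cluster was among the nearest 3 of a member in both lines.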

How the data were processed

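RNA was hybridised to Affymetrix Clariom S human arrays. The deposited values are log2 intensities, which the authors background corrected, normalized and summarised per transcript cluster by robust multi-array averaging (RMA) before deposit, and the submitters' processing notes also name limma. The mean sorted values of the lines differed by up to 0.38 (median 0.12). A single array differed from its line's mean sorted values by up to 0.20 in CHP134 and 0.14 in SK-N-AS. The lines were therefore taken to have been normalized apart, which the deposit does not state. The table held 44 columns, of which 4 CHP134 control columns were identical copies, which were averaged with their originals and left 40 arrays. The series text pairs hairpins and letters the other way round from the sample titles, and the titles were followed. The 5741 control probe sets were left out, 21448 transcript clusters were tested, and 17709 of these had 1 gene symbol in the platform annotation. Group means were fitted with limma 3.58.1 in R 4.3.3 (lmFit, eBayes), with the contrasts given in the report, Benjamini-Hochberg adjustment over all clusters and a threshold of 0.05. The study's own thresholds (1.5-fold, p under 0.05 and adjusted p under 0.20) were an alternative. The scripts were tested on simulated data. The number of arrays limits the precision.

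The members and lists were chosen with earlier results of these data known. The 9 members are named throughout. Of the other lists, at most 3 members with the smallest p in the mean response and members called anywhere are named. A few more were chosen after their values were seen (the DRD5 value for shRNA-2, PTPRC, KRT18, SOX10, PHOX2A, HAND2, TWIST1, MEOX2 and the genes of the last section). Same-lettered CHP134 arrays of different groups deviated together in 54 of 54 pairs (correlations of 0.14 to 0.59), so the letters were taken to pair the samples. The main fit, which gave the SEs and intervals, left this pairing out, and the fit with the letter as a block was an alternative. In the shRNA-1 response the SE of TH was 0.37 in the main fit and 0.19 with blocks, and that of DDC 0.29 in both. Other alternatives were a block for repeat set, median centring, quantile normalization, trend and robust moderation, array weights, a filter on dim clusters, all 28 arrays in each hairpin's fit, leaving out each array in turn and, chosen after seeing the data, leaving out the pair of SK-N-AS arrays that stood apart and pairing repeats within each hairpin's cells (limma on DOX minus vehicle per repeat). Promoters came from a RefSeq table for GRCh38.p14.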

Additional observations from a re-analysis of the deposited data

Results flagged for a closer look

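Within 54 groups of 4 to 6 arrays (the 9 genes in the 6 CHP134 groups), 4 arrays lay further from the rest of their group than Dixon's 95% limit, where chance gives about 1 group in 20. GCH1 measured 7.22 in shRNA-2 cells with DOX in repeat A, against 8.23 to 8.37 in the other 3 repeats. SLC18A1 measured 5.35 in control cells with vehicle in repeat E, against 4.17 to 4.47 in the other 5. SLC18A2 measured 5.80 in shRNA-1 cells with vehicle in repeat E, against 5.42 to 5.48 in the others. CYB561 measured 4.77 in shRNA-1 cells with vehicle in repeat B, against 5.11 to 5.17 in the others. The causes were not tested.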

How the results depend on the processing

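The count of members past the threshold stayed at 0 in each of the 10 comparisons under each alternative run for it but 1 and with each array left out in turn. The exception was 1 member, MAOA at 0.57 (adjusted p = 0.0413), in uninduced SK-N-AS shRNA-2 cells against control cells without the pair of arrays that stood apart, a setting chosen after seeing the data. The replicate block changed no call of a member at this threshold. With repeats paired within each hairpin's cells, SLC6A2 in the CHP134 mean response was 0.68 (1.60-fold, unadjusted p = 0.0146 and adjusted p = 0.117 by limma). These values meet the study's own thresholds, which were applied to the main fit only. The replicate block gave SLC6A2 the same 0.68 with a limma adjusted p of 0.162, also within the study's fold and adjusted p thresholds. With repeats paired within each hairpin's cells, SLC18A2 for shRNA-2 was -0.53 (1.44-fold lower, limma adjusted p = 0.0905), short of the study's fold threshold. The filter on dim clusters kept all 9. Of the values for single members, 710 under alternatives and 1872 with 1 array left out kept their side of the threshold.

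Counts over all clusters moved more, and the cause was not tested. In the CHP134 mean response (268) they were 527 under the study's thresholds, 1326 with the replicate block and 1203 with the repeat set block, and 1686 with repeats paired within each hairpin's cells, a setting added after seeing the data. For shRNA-1 (0) they were 5, 16 and 33 under the same 3, 1 with quantile normalization, 5 with trend and robust moderation, 26 with all 28 arrays in the fit and 111 with the pairing within hairpins. For shRNA-2 (167) they were 622, 959 and 749, with 267 under array weights, 302 with all 28 arrays and 987 with the pairing within hairpins. For shRNA-1 minus shRNA-2 (2) they were 7, 70 and 56, with 4 under quantile normalization and 82 with the pairing within hairpins. For uninduced shRNA-1 cells (0) they were 39, 169 and 4. In SK-N-AS the response (0) gave 23 under the study's thresholds, 16 with trend and robust moderation and 22 with array weights. Uninduced shRNA-2 cells of that line (1) gave 3 under the study's thresholds, 0 with the replicate block, 2 with array weights and 1063 without the pair that stood apart.

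With 1 array left out at a time, the counts over all clusters ran from 191 to 328 in the CHP134 mean response and from 0 to 2 for shRNA-1 (2 without DOX repeat F of shRNA-1). For shRNA-2 they ran from 72 to 193, and 9 arrays each took the count down by over 1.5 times, to 108 or less (the control DOX arrays of repeats A to D, the control vehicle arrays of A and D and the shRNA-2 vehicle arrays of B, C and D). For shRNA-1 minus shRNA-2 they ran from 1 to 4, and for uninduced shRNA-1 cells from 0 to 217, with 217 without shRNA-1 vehicle repeat B. In SK-N-AS they ran from 0 to 27 for the response (27 without shRNA-2 DOX repeat B, 9 without the control vehicle repeat that has no letter) and from 0 to 7 for uninduced shRNA-2 cells (7 without that same control array). The other 3 comparisons stayed at 0.

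In SK-N-AS 4 of 18 same-repeat pairs correlated over 0.1 (-0.47 to 0.41), so a block across all SK-N-AS groups rests on a shared name, while the 3 pairs within shRNA-2 cells all did (0.18 to 0.41). Values near background, as for DDC and SLC18A1 in CHP134, may understate differences.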

Other observations

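Further genes of the pathway were above background in 1 line and not in the other, as counts of arrays with no test between lines. They were chosen after their values were seen, and the share of all clusters that differ in this way was not counted. On single arrays 72.3% to 80.5% of clusters were above background in CHP134, and 75.8% to 81.9% in SK-N-AS. DRD2, a dopamine receptor, was above background on 28 of 28 CHP134 arrays (median 7.37) and on 1 of 12 SK-N-AS arrays (median 3.37). MOXD1, a relative of DBH, was above background on 0 of 28 CHP134 arrays (median 3.21) and on 12 of 12 SK-N-AS arrays (median 7.56), and RNLS, renalase, on 0 of 28 (median 3.40) and 12 of 12 (median 5.74). SLC7A8, an amino acid transporter, was above background on 1 of 28 CHP134 arrays and 12 of 12 SK-N-AS arrays. TPH1 and TPH2, the hydroxylases of serotonin synthesis, were not above background on any array of either line.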
